A study of Mus musculus with 12 samples.

Results

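The 54 genes described here stood highest in the SSEA-1+ cells of day 16 (D16S+) among 12 mRNA-Seq libraries of a mouse reprogramming series. They were chosen on the measured values themselves: on the scale log2(FPKM + 1), the level in D16S+ had to exceed the highest of the other 11 libraries by at least 1 unit, among genes that reached 1 FPKM in any library. FPKM is the number of fragments of a gene divided by its transcript length and by the mapped fragments of the library. The rule took 54 of 14178 genes that passed the filter on low values (0.381%), out of 24098 genes in the table. That D16S+ is the highest library is therefore given by the choice and is described here with no test.

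The series followed mouse embryonic fibroblasts (MEFs) with a GFP reporter at Oct4 that were infected with pMXs retroviruses carrying Oct4, Sox2, Klf4 and c-Myc (OSKM). The libraries D0 (cells not induced) and D3 were made from unsorted cells. Thy-1, a fibroblast surface protein, divided days 6 and 9 into D6T-, D9T- and D6T+, D9T+. SSEA-1, a carbohydrate on early pluripotent cells, divided days 12 and 16 into D12S+, D16S+ and D12S-, D16S-. Established iPSCs and the mESC line ESD3 (the library mESCs) were the end points. Per the labels, the induced cells and both end-point cultures were kept in a feeder-free medium with LIF, basic FGF, CHIR99021 and ascorbic acid. For iPSCs and ES-D3, the paper's methods name a medium with serum or with serum replacement, both with LIF. For reprogramming they name these media and the one above. Each condition had 1 library, so no value below has a replicate. The sorting used 1 surface marker, so a fraction may still hold cells of several states. In such bulk samples, fewer cells of a type and less RNA per cell cannot be told apart.

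Pluripotent cells derived by OSKM pass through a late phase in which the endogenous pluripotency network takes over from the viral factors. In this network the ligand Nodal signals through Smad2 and Smad3 and induces its own antagonists, the Lefty proteins. Genes of the germ line, which are silent in fibroblasts and often methylated at CG-rich promoters, can also be transcribed in cultured pluripotent cells. SSEA-1 itself has no gene of its own, as it is made by enzymes.

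The label of the D16S+ library was examined first with markers of cell types. The 6 pluripotency markers summed to 4674 FPKM in D16S+, against 1.79 to 4019 in the other 11 libraries, and all 6 were above 1 FPKM. Dppa5a alone held 3582 FPKM of the sum in D16S+, and 2 of the 6 markers were highest in D16S+. The 6 fibroblast markers summed to 32.7 FPKM, against 36.8 to 7149 FPKM, with 5 of 6 above 1 FPKM. Endothelial markers summed to 36.3 FPKM and blood markers to 62.0 FPKM, of which a single gene held 61.99 FPKM, and both sums lay within the range of the other libraries. The depth of D16S+ relative to D0, estimated from the steps of low values, was 1.51, within a range of 0.966 (D9T+) to 1.56 (D6T-). Its total FPKM of 484968 was the lowest, and D0 had the highest with 648264. The part of depth and of the total in the choice of genes was not tested. All 54 genes stayed in the set when each library was scaled to the same total. That outcome was fixed in advance, as this scaling raised D16S+ more than any other library (0.16 log2 units).

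To describe the genes, 51 of them were placed in 6 groups by known function and by gene type after their values had been seen. The groups were 13 genes of the germ line and early embryo, 2 of the Nodal pathway, 14 other protein-coding genes, 6 genes that most cells use, 9 long noncoding RNAs or pseudogenes, and 7 genes of small RNAs. Over all 54 genes the median margin over the next library was 1.33 log2 units, and 9 genes had a margin of at least 2. Those 9 were the 7 small RNA genes, Rab26os (2.27) and Dppa3 (2.18). In D16S+ the levels ran from 1.30 FPKM for Usp26 to 773 FPKM for Mir7079, with a median of 13.6 FPKM, and 37 genes reached at least 10 FPKM.

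**Figure D1:**
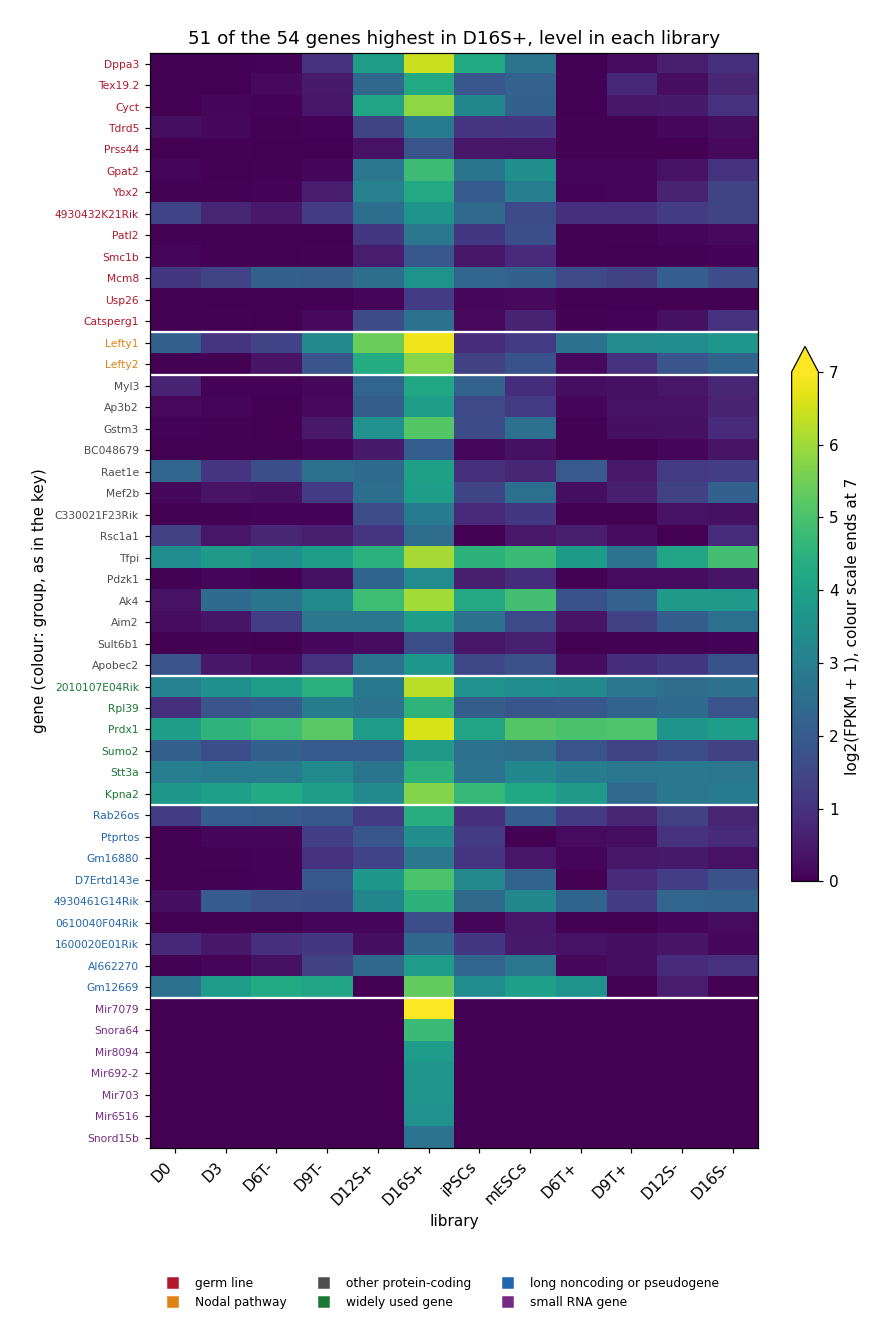
Level of each of the 51 genes placed in a group (rows, coloured and ordered by group, then by margin) in the 12 libraries (columns), as log2(FPKM + 1) on a colour scale that ends at 7. D16S+ is the brightest column by the choice of genes, D12S+ is the next brightest for 20 rows, and the 7 small RNA genes are dark in the other 11 libraries.

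The library that came second differed between genes. Leaving aside the 7 small RNA genes, which were listed at 0 in each other library, the next library was D12S+ for 20 genes, mESCs for 12, D9T- for 6, iPSCs for 5, D0 for 2, and D6T- and D16S- for 1 each. No gene had D12S-, D9T+, D6T+ or D3 as its next library. Along D0, D3, D6T-, D9T-, D12S+ and D16S+, 16 genes were already above 1 FPKM in D0, 3 first passed 1 in D3, 1 in D6T-, 8 in D9T-, 12 in D12S+ and 14 in D16S+. In iPSCs 33 of the 54 genes were above 1 FPKM, in mESCs 32, in D12S+ 38 and in D16S- 23. Of all 14178 genes, 11359 were at 1 FPKM or more in iPSCs, 11423 in mESCs, 11924 in D12S+, 11858 in D16S- and 11172 in D0.

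At the edge of the rule, Catsperg1 (1.01), Apobec2 (1.01), Usp26 (1.02) and Kpna2 (1.04) had the smallest margins inside it. Just outside were Kirrel2 (0.99), Haus1 (0.99), Mtl5 (0.97) and Sgol2 (0.96), so the boundary falls within a continuous run of values. Cuffdiff, with which the FPKM were estimated, gave each value an interval, and that interval is modelled from 1 library and holds no biological replicate. Its lower end in D16S+ was 0 for 45 of the 54 genes. It was above 0 for Dppa3, Lefty1, Lefty2, Gpat2, D7Ertd143e, Tfpi, Stt3a, Ak4 and Kpna2. No gene had an interval above those of all other 11 libraries (0.0% of the 14178 genes), and none was apart from D12S+ (0.0%) or D16S- (0.0141%). Against D0 the intervals were apart for 5 genes (0.557% of all genes): Dppa3, Lefty2, Gpat2, D7Ertd143e and Ak4.

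**Figure D2:**
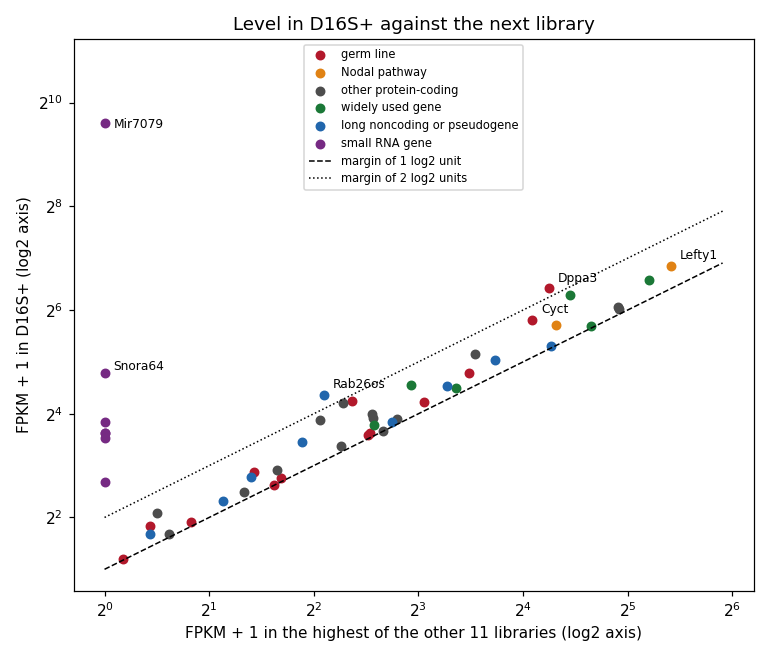
FPKM + 1 in D16S+ against FPKM + 1 in the highest of the other 11 libraries, both on log2 axes, for the 51 genes by group, with lines at margins of 1 and 2 log2 units. Apart from the 7 small RNA genes at the left edge, Rab26os and Dppa3 are the points above the line of 2 units.

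Genes of the germ line and of the egg formed the largest group with a common role. Dppa3 (Stella), a maternal protein that protects DNA methylation in the zygote and marks primordial germ cells, lies at chr6:122576428-122580290 on the plus strand (mm9). It was listed at 0 FPKM in D0, D3 and D6T+, at 0.0443 in D6T-, 0.142 in D9T+, 0.515 in D12S- and 0.970 in D16S-, and at 1.02 in D9T-, 13.98 in D12S+, 85.0 in D16S+, 17.9 in iPSCs and 5.53 in mESCs. It was thus low in the fibroblasts and in every fraction of the unsuccessful route, and the FPKM in D16S+ was 4.74 times that of iPSCs. The interval in D16S+ ran from 1.18 to 169 FPKM. Of its 31-base stretches, 48.4% occur again in the genome.

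Cyct, which encodes the cytochrome c of the testis (minus strand, chr2:76191999-76198507), was at 0 FPKM in both D0 and D6T+, at 0.0609 in D3, 0.0584 in D6T-, 0.337 in D9T-, 16.0 in D12S+, 55.4 in D16S+, 8.54 in iPSCs, 3.48 in mESCs, 0.374 in D9T+, 0.425 in D12S- and 1.01 in D16S-. Only the SSEA-1+ fractions exceeded the end-point cultures for this gene. Tex19.2, a paralog of a gene that restrains retrotransposons in germ cells, was at 0.0242 FPKM in D0, 0 in D3, 0.139 in D6T-, 0.422 in D9T-, 4.15 in D12S+, 18.1 in D16S+, 2.77 in iPSCs, 3.62 in mESCs, 0.0384 in D6T+, 0.700 in D9T+, 0.203 in D12S- and 0.678 in D16S-. Its levels in D12S+, iPSCs and mESCs lay close together, and D16S+ stood apart from them. Its paralog Tex19.1, which did not meet the rule, was at 113.7 FPKM in D16S+ against 89.1 in iPSCs, a margin of 0.35.

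Gpat2, an enzyme of the outer mitochondrial membrane that takes part in making piRNAs, was at 0.0924 FPKM in D0, 0.0124 in D3, 0.0237 in D6T-, 0.0849 in D9T-, 5.68 in D12S+, 26.6 in D16S+, 5.58 in iPSCs, 10.2 in mESCs, 0.0733 in D6T+, 0.0765 in D9T+, 0.259 in D12S- and 1.02 in D16S-. Tdrd5, a Tudor protein needed for silencing of retrotransposons in male germ cells, was at 0.198 FPKM in D0, 0.112 in D3, 0.0293 in D6T-, 0.0420 in D9T-, 1.69 in D12S+, 6.39 in D16S+, 1.10 in iPSCs, 1.20 in mESCs, 0.0242 in D6T+, 0.0316 in D9T+, 0.117 in D12S- and 0.199 in D16S-. In each of them the 2 SSEA-1+ fractions and the 2 end-point cultures were above all other libraries. Smc1b, the cohesin subunit of meiosis, was at 0.0588 FPKM in D0, 0.0158 in D3, 0.00753 in D6T-, 0.0216 in D9T-, 0.464 in D12S+, 2.74 in D16S+, 0.376 in iPSCs, 0.776 in mESCs, 0 in D6T+ and D9T+, 0.0329 in D12S- and 0.0471 in D16S-. For Smc1b, D16S+ was the single library above 1 FPKM.

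The remaining germ-line genes were at 1.30 to 17.8 FPKM in D16S+. Ybx2, a protein that stores mRNA in germ cells, was at 17.8 FPKM in D16S+, 7.32 in D12S+ and 7.07 in mESCs. Patl2, which is needed for oocyte maturation, was at 5.80 FPKM in D16S+ and 2.22 in mESCs, and its locus overlaps B2m. Catsperg1, a subunit of the calcium channel of sperm, was at 5.17 FPKM in D16S+ and 2.06 in D12S+. Prss44, a testis protease, was at 2.55 FPKM and Usp26, an X-linked deubiquitinase of the testis, at 1.30 FPKM in D16S+, and neither reached 1 FPKM elsewhere. Different from these were 2 genes that were above 1 FPKM already in D0. Mcm8, a helicase of homologous recombination, spanned 1.20 FPKM (D0) to 11.1 FPKM (D16S+), and 4930432K21Rik, a protein of meiotic recombination, 0.382 FPKM (D6T-) to 11.4 FPKM (D16S+).

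A longer list of genes of the germ line and meiosis gave the setting of these genes. Of 47 such genes that passed the filter, 22 (46.8%) were highest in D16S+ by any margin, against 9.94% of all 14178 genes, and 3 of the 47 met the rule (Tdrd5, Gpat2 and Smc1b). Smc1b, Xlr3b, Xlr3c and Xlr4a reached 1 FPKM in D16S+ alone. They passed the filter only through D16S+, so they could be highest in no other library. Among the 44 genes of the list that the rule did not take, 19 were highest in D16S+, 17 in mESCs, 6 in iPSCs and 2 in other libraries. Of all 14124 genes that the rule did not take, 1356 (9.60%) were highest in D16S+, 2617 in mESCs and 1935 in iPSCs. Sycp3, a protein of the synaptonemal complex, came nearest with a margin of 0.94 and was at 3.43 FPKM in D16S+ and 1.30 in iPSCs. In contrast, Stra8, which starts meiosis, was at 12.5 FPKM in D16S+ and 138 in mESCs, and Dazl was at 2.78 in D16S+, 5.17 in iPSCs and 5.15 in mESCs. Of the same 47 genes, 12 had a level in D16S+ that was 2-fold or more above iPSCs and 3 had one 2-fold or more below, against 7.77% and 4.38% of all genes. The 12 include Tdrd5, Gpat2 and Smc1b, for which the rule fixes this. The list was described by counts alone. Of 15 genes of the formative and primed epiblast, 6 (40%) were also highest in D16S+, and none of them met the rule. Of 35 genes of pluripotency, 9 (25.7%) were highest in D16S+, and 3 met the rule (Dppa3, Lefty1 and Lefty2). Among the other 32, 6 were highest in D16S+, 17 in iPSCs, 6 in mESCs and 3 in other libraries. Nanog was among the 9 with 192 FPKM in D16S+ and 142.5 in iPSCs, while Zfp42 was at 54.2 in D16S+ and 173 in mESCs. Of 23 genes of the state like 2-cell embryos, 1 met the rule (Dppa3), and 9 were at least 2-fold below iPSCs in D16S+, against 4.38% of all genes.

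**Figure D3:**
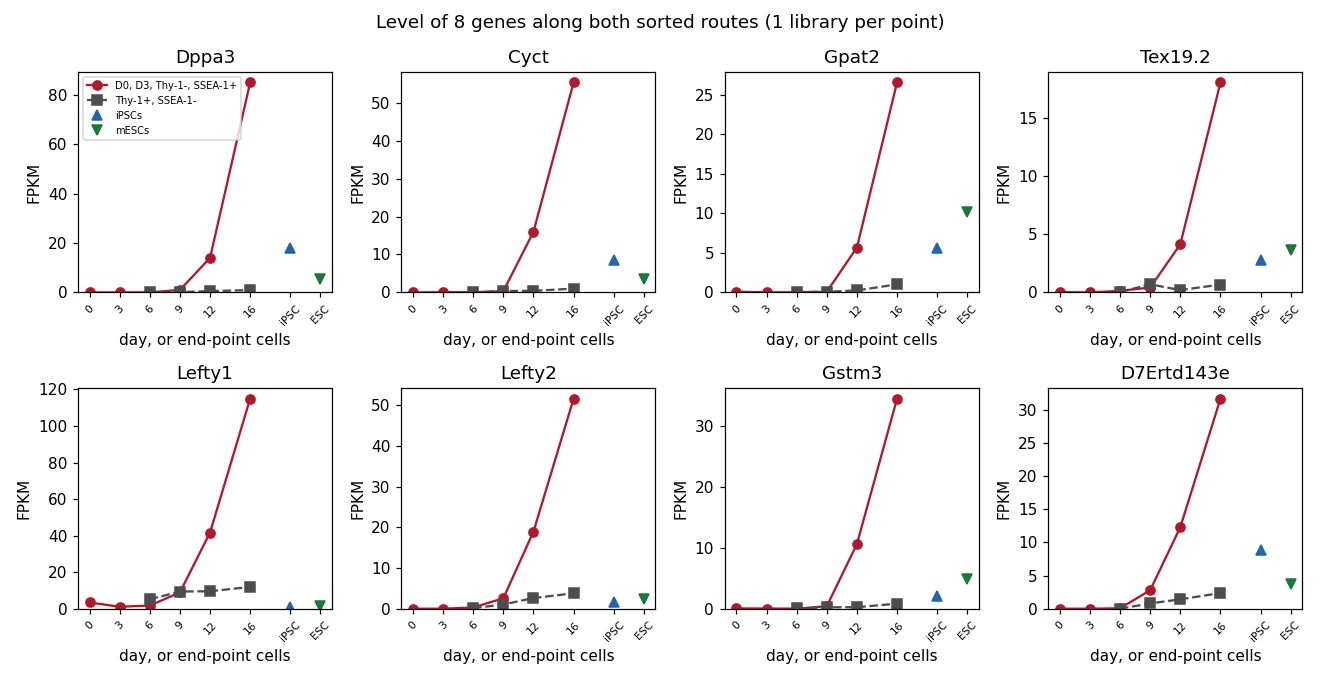
FPKM of 8 of the 54 genes against the day of collection for the successful route (circles: D0, D3, Thy-1- and SSEA-1+ fractions) and the unsuccessful route (squares: Thy-1+ and SSEA-1- fractions), with iPSCs and mESCs at the right (triangles), 1 library per point. Dppa3 goes from 13.98 FPKM in D12S+ to 85.0 in D16S+ and Lefty1 from 41.7 to 115 FPKM, while iPSCs and mESCs lie below D16S+ in each panel.

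The promoters of the germ-line genes were read from the RefSeq promoter table of build GRCm38.p6, which differs from the mm9 build of the expression values. It matched 37 of the 54 genes, 11 of them germ-line genes. In the 250 bases before the start, the letters TCCCGC, the core that E2F6 recognises, stood on either strand in 5 of 11 germ-line promoters (45.5%) and 13 of 37 promoters in all (35.1%), against 16.9% of 27025 promoters. Outside the germ line, Rpl39, Prdx1, Sumo2, Stt3a, Gstm3, Mef2b, Apobec2 and 1600020E01Rik had these letters. Of the matched genes that most cells use, only Kpna2 lacked them. The letters were thus not particular to the germ-line genes. E2F6 is known as a repressor of germ-line genes in somatic cells. The 5 germ-line promoters are shown for this reason, each 5′ to 3′ on the strand of its gene, with TCCCGC or its reverse complement GCGGGA in capitals. They are chr2:76360454-76360703 (minus strand) for Cyct, chr1:156303349-156303598 (minus) for Tdrd5, chr11:69935649-69935898 (plus) for Ybx2, chr15:85131958-85132207 (minus) for Smc1b and chr2:132815891-132816140 (plus) for Mcm8, where the E-box CACGTG is in capitals too.
Cyct: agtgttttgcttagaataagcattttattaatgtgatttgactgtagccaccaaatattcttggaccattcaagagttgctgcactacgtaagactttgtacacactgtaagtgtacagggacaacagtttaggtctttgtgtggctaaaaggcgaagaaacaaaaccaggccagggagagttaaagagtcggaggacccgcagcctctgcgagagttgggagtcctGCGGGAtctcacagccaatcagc
Tdrd5: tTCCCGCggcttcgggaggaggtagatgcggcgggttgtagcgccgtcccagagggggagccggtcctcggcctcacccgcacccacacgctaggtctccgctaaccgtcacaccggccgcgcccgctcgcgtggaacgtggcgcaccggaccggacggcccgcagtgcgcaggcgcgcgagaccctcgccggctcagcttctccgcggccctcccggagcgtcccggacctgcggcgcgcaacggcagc
Ybx2: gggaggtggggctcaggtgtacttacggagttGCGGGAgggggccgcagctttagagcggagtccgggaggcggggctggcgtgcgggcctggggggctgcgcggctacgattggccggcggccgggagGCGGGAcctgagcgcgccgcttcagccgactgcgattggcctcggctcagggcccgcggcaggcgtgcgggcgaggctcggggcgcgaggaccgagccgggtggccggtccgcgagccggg
Smc1b: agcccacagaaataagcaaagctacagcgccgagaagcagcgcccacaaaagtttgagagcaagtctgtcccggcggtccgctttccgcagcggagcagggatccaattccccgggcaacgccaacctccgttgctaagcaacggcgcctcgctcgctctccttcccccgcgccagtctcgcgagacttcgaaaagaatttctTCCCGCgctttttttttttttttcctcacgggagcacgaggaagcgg
Mcm8: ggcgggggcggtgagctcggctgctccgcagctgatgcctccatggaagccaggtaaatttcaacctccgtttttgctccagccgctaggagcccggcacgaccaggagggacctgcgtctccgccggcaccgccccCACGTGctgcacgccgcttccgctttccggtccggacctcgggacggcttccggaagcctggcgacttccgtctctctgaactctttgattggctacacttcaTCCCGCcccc

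Counting upstream from the start, the letters end 18 bases before it in Cyct, 244 in Tdrd5, 42 in Smc1b and 5 in Mcm8, and in Ybx2 they occur at 2 places. Other letters were also counted on both strands. The CCAAT letters of NF-Y were in 7 of 11 germ-line promoters (63.6%) and 34.5% of all promoters, and a motif of NRF1 in 3 of 11 (Tdrd5, Gpat2 and 4930432K21Rik) and 3.86%. The E-box CACGTG was in 2 of 37 promoters (D7Ertd143e and Mcm8), or 5.41%, against 6.05%, and the octamer ATGCAAAT was in 1 of 37 (Mef2b), against 1.61%. The letters CATTGT of Sox factors were in 7 of 37 promoters (18.9%, against 10.99%), CCACCC of KLF in 16 (43.2%, against 27.7%), CTTTGA of TCF/LEF in 4 (10.8%, against 14.05%), TGANTCA of AP-1 in 3 (8.11%, against 6.87%), TATAAA in 6 (16.2%, against 12.97%) and GCCNNNGGC of AP-2 in 1 (2.70%, against 13.6%). AGATAA of GATA factors (10.3% of all promoters), TGACGTCA of the CRE motif (1.62%), AGGTGTGA of T-box factors (1.14%) and TCAAGGTCA of ESRRB (0.366%) were in none of the 37. The median number of CG dinucleotides in the window was 11 for the germ-line genes, 7 for the 37 promoters and 6 for all promoters, with 40 in Tdrd5 and 6 in Cyct. A match of letters is a description of the sequence only.

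Of the Nodal pathway, both Lefty genes met the rule. Lefty1 and Lefty2, secreted antagonists that block the receptors and co-receptors of Nodal, lie 35.9 kb apart on chromosome 1 of mm9 (chr1:182865153-182868531 and chr1:182823239-182829234, both on the plus strand). Lefty1 was at 3.41 FPKM in D0, 1.08 in D3, 1.70 in D6T-, 8.91 in D9T-, 41.7 in D12S+, 115 in D16S+, 0.867 in iPSCs, 1.32 in mESCs, 5.16 in D6T+, 9.36 in D9T+, 9.57 in D12S- and 11.9 in D16S-. It was lower in both end-point cultures than in D0, and the FPKM of D16S+ was 133 times that of iPSCs and 87.2 times that of mESCs. The interval of Lefty1 in D16S+ (5.78 to 224 FPKM) lay above those of iPSCs and mESCs, which held for no other of the 54 genes and for 0.0282% and 0.0564% of all genes.

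Lefty2 was listed at 0 FPKM in D0 and D3, at 0.292 in D6T-, 2.57 in D9T-, 18.9 in D12S+, 51.6 in D16S+, 1.58 in iPSCs, 2.41 in mESCs, 0.126 in D6T+, 1.03 in D9T+, 2.63 in D12S- and 3.79 in D16S-. Like Lefty1, it was higher in D12S+ than in either end-point culture. The 2 Lefty genes share 25.2% and 28.0% of their 31-base stretches with other places in the genome.

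Nodal and the proteins with which it acts did not meet the rule. The ligand Nodal was at 39.3 FPKM in D12S+, 47.7 in D16S+, 67.4 in iPSCs and 16.8 in mESCs. Its co-receptor Tdgf1 was at 250.3 FPKM in D12S+, 339 in D16S+, 176 in iPSCs and 386 in mESCs, and the partner factor Foxh1 at 48.5, 58.5, 69.7 and 67.4 in the same libraries. These genes therefore differed far less between D16S+ and iPSCs than the Lefty genes did. Of 32 genes of Nodal, BMP and FGF signalling, 13 were at least 2-fold higher in D16S+ than in D16S- and 6 lower (11.8% and 15.2% of all genes), and against iPSCs 6 were higher and 4 lower (7.77% and 4.38%). In that list Fgf15 had a margin of 0.41 and Fgf5 of 0.28.

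Among the 9 long noncoding RNAs and pseudogenes, D7Ertd143e carries a known function through the microRNAs it holds. Its locus in the table, chr7:3218785-3221016 (mm9), contains the rows of Mir291a, Mir291b, Mir292, Mir292b, Mir293, Mir294 and Mir295, the miR-290 cluster, which promotes the rapid cell cycle of embryonic stem cells. All 7 of these rows were listed at 0 in each library, and polyA-selected libraries are not made to capture mature microRNAs. D7Ertd143e itself was listed at 0 FPKM in D0, D3 and D6T+, and was at 0.0564 in D6T-, 2.79 in D9T-, 12.3 in D12S+, 31.7 in D16S+, 8.86 in iPSCs, 3.68 in mESCs, 0.797 in D9T+, 1.42 in D12S- and 2.36 in D16S-. The order D16S+, D12S+, iPSCs and mESCs was that of Dppa3 with iPSCs and D12S+ exchanged. Mature 3p sequences of the cluster from RefSeq are given to show their seeds, bases 2 to 8 in capitals. The seed AAGUGCU is common to 3 of them and differs in the last base in miR-291b-3p. That of miR-293-3p is GUGCCGC.
miR-291a-3p: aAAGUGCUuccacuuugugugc
miR-294-3p: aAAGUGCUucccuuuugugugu
miR-295-3p: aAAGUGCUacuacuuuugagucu
miR-291b-3p: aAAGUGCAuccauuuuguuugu
miR-293-3p: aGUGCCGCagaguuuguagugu

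Rab26os had the largest margin outside the small RNA genes. It was at 1.35 FPKM in D0, 3.26 in D3, 3.16 in D6T-, 2.77 in D9T-, 1.26 in D12S+, 19.7 in D16S+, 0.915 in iPSCs, 3.28 in mESCs, 1.31 in D6T+, 0.657 in D9T+, 1.53 in D12S- and 0.663 in D16S-, and its interval in D16S+ began at 0. The other 11 libraries ranged from 0.657 to 3.28 FPKM, and D12S+ was not above D12S-. Ptprtos, antisense to Ptprt, was listed at 0 FPKM in D0 and mESCs, and was at 0.0644 in D3, 0.0617 in D6T-, 1.42 in D9T-, 2.69 in D12S+, 9.97 in D16S+, 1.33 in iPSCs, 0.153 in D6T+, 0.198 in D9T+, 0.988 in D12S- and 0.774 in D16S-. Gm16880, named Platr22 (pluripotency-associated transcript) in RefSeq, had a like order at 5.83 FPKM in D16S+ and 1.65 in D12S+. AI662270 was at 13.3 FPKM, 4930461G14Rik at 22.1 FPKM, 1600020E01Rik at 3.97 FPKM and 0610040F04Rik at 2.22 FPKM in D16S+. Gm12669 was at 38.8 FPKM in D16S+, 18.3 in D6T- and 0 in D12S+ and D9T+. Its locus in the table overlaps Glrx3 on chromosome 7, whereas GENCODE M1 places a pseudogene of that name on chromosome 4, so its values cannot be assigned to 1 place.

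The 14 other protein-coding genes shared no single function, and 8 of them had D12S+ as their next library. Myl3, a light chain of myosin in slow muscle and heart, was at 0.619 FPKM in D0, 0.0412 in D3, 0.0395 in D6T-, 0.114 in D9T-, 3.86 in D12S+, 17.5 in D16S+, 3.67 in iPSCs, 0.901 in mESCs, 0.196 in D6T+, 0.254 in D9T+, 0.345 in D12S- and 0.680 in D16S-. None of the other 23 muscle genes that passed the filter was highest in D16S+. Prss44 of the germ-line group lies 44.2 kb from Myl3 on chromosome 9, with Prss42 between them.

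Ap3b2, a subunit of the neuronal AP-3 adaptor, was at 0.138 FPKM in D0, 0.0922 in D3, 0.0160 in D6T-, 0.138 in D9T-, 3.17 in D12S+, 13.8 in D16S+, 1.92 in iPSCs, 1.26 in mESCs, 0.0993 in D6T+, 0.259 in D9T+, 0.269 in D12S- and 0.614 in D16S-. The locus of BC048679 lies 348 bases from that of Ap3b2 on chromosome 7, with no gene of the table between, and both are on the minus strand. BC048679 was listed at 0 FPKM in D0, D3, D6T-, D6T+ and D9T+, and was at 0.0791 in D9T-, 0.413 in D12S+, 3.24 in D16S+, 0.101 in iPSCs, 0.251 in mESCs, 0.0799 in D12S- and 0.294 in D16S-. Both genes of this pair had D12S+ as the next library and were below 1 FPKM in each fraction of the unsuccessful route.

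Gstm3, a glutathione transferase, was at 0.0438 FPKM in D0, 0.0292 in D3, 0 in D6T-, 0.402 in D9T-, 10.6 in D12S+, 34.5 in D16S+, 2.08 in iPSCs, 4.93 in mESCs, 0.0347 in D6T+, 0.226 in D9T+, 0.245 in D12S- and 0.832 in D16S-. The highest levels in this group were those of Tfpi, an inhibitor of blood clotting (65.5 FPKM in D16S+ and 29.0 in D16S-), and Ak4, a mitochondrial adenylate kinase (64.0 in D16S+ and 29.2 in mESCs). Tfpi was at least at 5.40 FPKM in all 12 libraries, and it was the single gene with D16S- as its next library. Aim2, a sensor of cytosolic DNA, was at 13.9 FPKM in D16S+ and 5.93 in D12S+. Lower levels in D16S+ were those of Mef2b (14.02 FPKM), a factor of muscle and B cells, Apobec2 (11.7 FPKM), of the cytidine deaminase family, Pdzk1 (9.43 FPKM), a scaffold of transporters, and Sult6b1 (2.22 FPKM), of the sulfotransferase family. Raet1e, a ligand of a receptor on natural killer cells, was at 15.0 FPKM in D16S+ within a locus that overlaps related Raet1 genes. Rsc1a1 was at 4.61 FPKM in D16S+ and lies within Ddi2, and C330021F23Rik (Rps23rg1) was at 6.58 FPKM.

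The 6 genes that most cells use had close levels in the fractions of day 12, with a median difference of 0.27 log2 units between D12S+ and D12S-. Rpl39, a protein of the large ribosomal subunit, was at 0.977 FPKM in D0, 2.56 in D3, 3.08 in D6T-, 6.63 in D9T-, 5.37 in D12S+, 22.5 in D16S+, 3.20 in iPSCs, 2.66 in mESCs, 2.76 in D6T+, 3.71 in D9T+, 4.48 in D12S- and 2.52 in D16S-. The gene 2010107E04Rik (Atp5mpl), a small subunit of ATP synthase, was at 7.58 FPKM in D0, 10.5 in D3, 14.05 in D6T-, 20.8 in D9T-, 6.12 in D12S+, 77.1 in D16S+, 10.7 in iPSCs, 9.55 in mESCs, 8.92 in D6T+, 5.77 in D9T+, 4.69 in D12S- and 5.08 in D16S-. For both, D9T- was the next library and the SSEA-1+ and SSEA-1- fractions of day 12 were close. Prdx1, a peroxiredoxin, was at 94.1 FPKM in D16S+ and 35.9 in D9T-, Kpna2, an importin, at 50.8 FPKM and 24.1 in iPSCs, and Stt3a, of the oligosaccharyltransferase, at 21.5 FPKM and 9.28 in D9T-. Sumo2 was at 12.8 FPKM in D16S+ and 4.98 in iPSCs.

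At least 50% of the 31-base stretches occurred again in the genome for 3 of these 6 genes (Rpl39, Sumo2 with 95.6% and Kpna2 with 94.3%), and for none of the 13 germ-line genes. Of the germ-line genes, Dppa3 (48.4%) and Catsperg1 (44.8%) were not far below this limit. The share was 19.9% in Prdx1, 1.49% in 2010107E04Rik, which had the largest margin of the 6 (1.84), and 1.41% in Stt3a. Over all 54 genes it was 6 of 49 with a value (12.2%), against 3.78% of 13052 genes. Reads that mapped to several loci had been removed by the authors, and the part of this step in the high values of D16S+ was not tested.

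The 7 genes of small RNAs were Mir7079 (773 FPKM in D16S+), Snora64 (26.6 FPKM), Mir8094 (13.3 FPKM), Mir703 (11.4 FPKM), Mir692-2 (11.4 FPKM), Mir6516 (10.6 FPKM) and Snord15b (5.39 FPKM). Each was listed at 0 in the other 11 libraries. Each interval began at 0, and that of Mir7079 ended at 130291 FPKM. These are the 7 genes of the set whose annotated exons sum to under 300 bases, out of 49 with a length. All 7 lie within the locus of a longer gene. The longer genes of Mir7079, Snora64 and Snord15b are ribosomal protein genes with high levels in all libraries (Rpl13 at 1302 FPKM, Rps2 at 2283 FPKM and Rps3 at 1132 FPKM in D16S+). Mir8094 lies in Ddx39b (214 FPKM in D16S+), Mir6516 in 2810008D09Rik (57.7 FPKM), Mir692-2 in Grik3 (1.92 FPKM) and Mir703 in 1700007G11Rik (0.978 FPKM). Of these 7 longer genes, which were looked up after the values had been seen, 1700007G11Rik and 2810008D09Rik were highest in D16S+, and the other 5 were higher in at least 1 other library. The mature microRNAs are shown to give the length of the products beside those FPKM, from RefSeq (GRCm38.p6), with the seed in capitals. No seed is shared among them.
miR-7079-5p: aGGGCUGAggcagugaguccug
miR-7079-3p: uGACUUCUguucucuuuccag
miR-8094: aACUGAAGgacaacgagaaga
miR-703: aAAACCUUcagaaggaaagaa
miR-692: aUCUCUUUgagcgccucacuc
miR-6516-5p: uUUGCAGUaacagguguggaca
miR-6516-3p: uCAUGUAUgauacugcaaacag

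To see how the 54 genes behaved in comparisons that the choice did not fix, libraries other than D16S+ were compared with each other. Differences here are in log2(FPKM + 1), and at least 2-fold means at least 1 unit. D12S+ was at least 2-fold above D12S- for 23 of the 54 genes, against 4.79% of all genes, and for no gene at least 2-fold below, against 3.03%. The median difference was 0.67 over the 54 genes and -0.01 over all genes. The genes were nevertheless chosen on values that include D12S+ as an upper bound, and no test is given. Cyct (3.58), Dppa3 (3.31) and Gstm3 (3.22) had the largest differences on day 12. By group, the median was 1.29 in the germ line, where D12S+ was above D12S- for 13 of 13 genes and at least 2-fold for 9, 2.24 in both Lefty genes, 1.20 in the other protein-coding genes, 0.89 in the long noncoding group and 0.27 in the genes that most cells use. Of all 14178 genes, 6854 were above D12S- in D12S+ by any amount. The direction was shared by genes that the rule did not take. Of the 44 such genes of the germ-line list, D12S+ was above D12S- for 42 and at least 2-fold for 12. Of the 32 such genes of pluripotency, it was at least 2-fold above for 26, with a median of 2.36. The 7 small RNA genes were listed at 0 in both fractions.

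**Figure D4:**
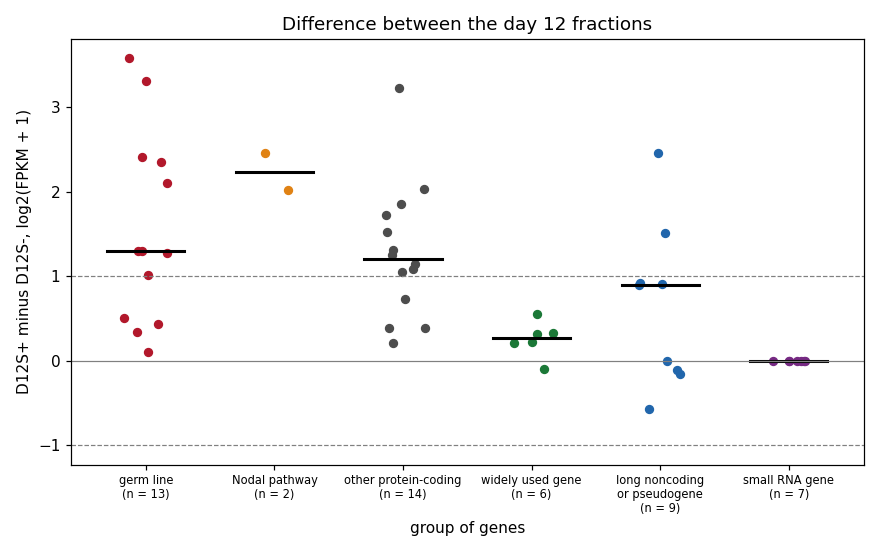
Difference between D12S+ and D12S- in log2(FPKM + 1) for each of the 51 genes placed in a group (points), with the group median as a bar, a line at 0 and dashed lines at 2-fold. All 13 germ-line genes lie above 0 with a median of 1.29, and no point lies below the lower dashed line.

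On day 9 the pattern was narrower. D9T- was at least 2-fold above D9T+ for 12 genes and below for none, against 1.81% and 6.45% of all genes. None of the 12 was a germ-line gene, and the median of that group was 0.01, while 5 were long noncoding RNAs or pseudogenes, 4 other protein-coding genes and 2 genes that most cells use. On day 6, D6T- was at least 2-fold above D6T+ for 0 genes (2.93% of all genes) and below for 1, Lefty1 (9.47%). D12S+ was 2-fold or more above D9T- for 21 genes and below for 3, against 7.05% and 3.3%. Between the SSEA-1- fractions, D16S- and D12S-, 0 genes were 2-fold apart in either direction (2.03% and 0.536%).

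The end points gave a mixed picture. iPSCs were at least 2-fold above D0 for 22 genes and below for 4, against 18.7% and 21.6% of all genes, with a median difference of 0.66. The germ-line genes were above D0 in iPSCs for 13 of 13 genes with a median of 1.14, while Lefty1 was below. Of all 14178 genes, 7224 were above D0 in iPSCs by any amount. Against mESCs, iPSCs were at least 2-fold higher for 7 genes and lower for 3, against 6.79% and 7.41% of all genes, with a median of -0.05. For scale, the differences that the choice did fix had medians of 1.59 (D16S+ minus D12S+), 2.14 (minus iPSCs), 2.04 (minus mESCs), 2.68 (minus D16S-) and 3.16 (minus D0).

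The same rule applied to each of the other libraries took 299 genes in D0, 245 in mESCs, 121 in iPSCs, 59 in D16S-, 40 in D3, 37 in D9T+, 11 in D6T-, 7 in D6T+, 5 in D12S+, 2 in D9T- and 2 in D12S-. Among the sorted fractions D16S+ and D16S- thus had the most such genes. Genes with exons under 300 bases made up 7 of the 11 genes of D6T- and 2 of the 2 of D9T-. In iPSCs they made up 0 of the 100 genes with a length, out of 121.

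**Figure D5:**
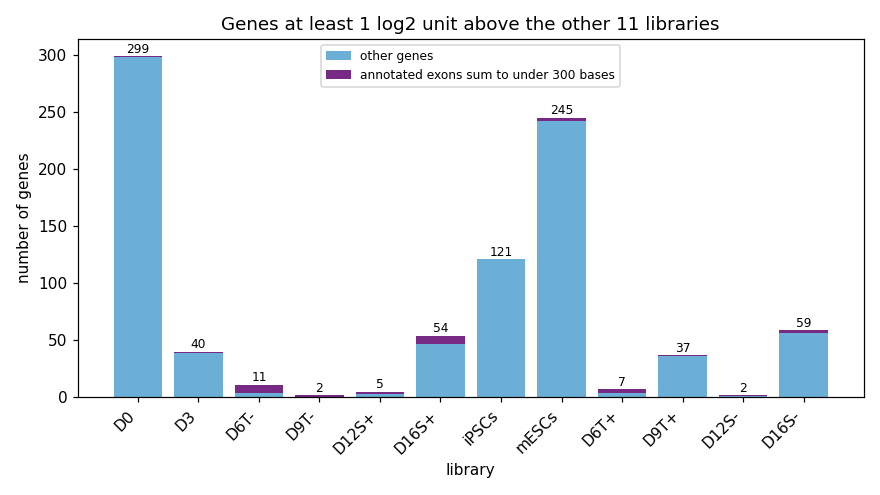
Number of genes at least 1 log2 unit above the other 11 libraries, for each library, with genes whose annotated exons sum to under 300 bases in the darker part of the bar. D16S+ has 54 genes, 7 of them short, between D0 (299) and D9T- and D12S- (2 each).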

How the data were processed

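Sequencing was of polyA RNA, 1 library per condition, and the titles in the labels gave the groups. The authors mapped the reads to mm9 with STAR, removed reads with more than 1 locus and estimated expression with cuffdiff, whose version, annotation and scaling are not given in the sources used here. The deposited values are FPKM with the lower and upper end of a modelled interval. A further 12 columns of status words, 1 entry per library, were not used. Total fragments are unknown, so relative depth was taken from the steps of values under 0.5 FPKM.

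Values were analysed as log2(FPKM + 1) (pandas 2.3.3, numpy 2.4.6), in genes with at least 1 FPKM in any library, on which scale differences of low genes are understated. A gene was taken when D16S+ was at least 1 unit above the other 11 libraries. The members, the gene lists and the alternatives were chosen with earlier results of these data known, and the 6 groups were made after the values had been seen. Of the 54 genes, 3 enter the totals but are not reported here. Any other gene meeting the rule could be named, with all 12 values for the 20 largest margins and for members in a list. Of 54 genes, 44 had a single GENCODE M1 gene at the locus in the table, and 54 a RefSeq entry. Repeats were counted as 31-base stretches, every 5 bases of the exons, that occur again in the mm9 genome. The steps that apply the rule were tested on simulated data.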

Additional observations from a re-analysis of the deposited data

Results flagged for a closer look

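For 4 of the 54 genes the fractions of days 12 and 16 differed in opposite directions, with 1 library each. D12S+ minus D12S- was -0.16 log2 units for Rab26os, -0.11 for 1600020E01Rik, -0.094 for Stt3a and -0.57 for Gm12669, whereas D16S+ was above D16S- for all of them by the choice of genes. This contrast of days 12 and 16 had no test. No group had enough libraries for a search for outlying samples.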

How the results depend on the processing

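Of 88 values recomputed under other settings, 61 stayed within 1.5 times (counts) or 0.5 log2 units (medians) and 27 moved further. The sign changed for 0 of them, though a count has no sign to change. The rule keeps the medians of the margin and of D16S+ minus D16S- positive. Within the limit of 0.5 log2 units, the median of D9T- minus D9T+ went from 0.14 to 0.53 with a pseudocount of 0.1. Without genes under 300 exonic bases it was 0.35. That of iPSCs minus mESCs went from -0.05 to 0 and to -0.23 in the same order. With a pseudocount of 0.1 the rule took 96 genes, among them the same 54, the next library was D12S+ for 35, mESCs for 21, iPSCs for 13 and D9T- for 11, and the medians were 1.18 for D12S+ minus D12S-, 1.41 for iPSCs minus D0 and 3.33 for D16S+ minus D16S-. This pseudocount widens the margin of each of the 54 genes, so none could drop out, and it lets lower genes pass. With each library scaled to the same total FPKM, 74 genes were taken, among them the same 54, the next library was iPSCs for 11, and the most genes of any other library was 181. That scaling raised D16S+ the most, so the 54 genes could not drop out. It shifted the median difference of all genes between D16S+ and another library by 0.05 to 0.31 log2 units. Without genes under 300 exonic bases 47 genes remained, the same but for the 7 small RNA genes, and the fewest genes of any other library was 0. A margin of 2 left 9 genes with a median margin of 3.64, next to D12S+ for 0, mESCs for 1, iPSCs for 1 and D9T- for 0, and 1 to 50 genes in the other libraries. A margin of 0.5 took 248 genes with a median margin of 0.72, next to D12S+ for 80, mESCs for 71, iPSCs for 38 and D9T- for 30, and 14 to 870 genes in the other libraries.

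A filter of 5 FPKM left 46 of the 54 genes. No filter left 54, as a margin of 1 already needs at least 1 FPKM. Leaving out 1 of the other 11 libraries can only add genes, and gave 54 to 101. The number was 95 without D12S+, 101 without iPSCs and 97 without mESCs. The median margin then ranged from 1.27 to 1.37, and the next library was D12S+ for 20 to 50, mESCs for 12 to 33, iPSCs for 5 to 23 and D9T- for 6 to 14 genes. No gene had an interval apart from all other libraries under any of these settings. No paired analysis was possible because each condition had 1 library and no result comes from a test. The number of fragments is unknown, so no counting interval could be given, and 45 of the 54 deposited intervals in D16S+ begin at 0.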
